A study of Arabidopsis with 36 samples.

Results

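Heavy polysomes of the AtY34 overexpressor were compared with light polysomes of the same line, to ask which mRNAs of this line were relatively more abundant in the fraction that carries many ribosomes and which in the fraction that carries few. The 6 libraries compared, of 36 in the series, were taken by their labels: 3 of heavy and 3 of light polysomes, all from whole Arabidopsis seedlings aged 11 days and mock-treated. Of the 33035 loci in the gene table the 32801 nuclear loci were analysed, and 20171 of these passed a filter on low values and were tested. The series also holds total RNA of this line and the same 3 kinds of RNA from other lines. Heavy and light polysomes of wild type (Col-2), 3 libraries each, mock-treated and of the same age, are given beside the AtY34 values. The sources used here give neither the locus of AtY34, nor the promoter that drives it, nor whether the line is 1 insertion event, so the overexpression itself could not be checked. The labels do not say if the replicates were grown apart from each other. The p-values therefore speak only of the spread among these libraries, and that spread may be technical.

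In polysome profiling a plant extract is spun through a density gradient, which parts mRNAs by the number of ribosomes bound to them. An mRNA in heavy polysomes is usually being translated by many ribosomes at once. A short coding sequence has room for few ribosomes, so well translated mRNAs of small proteins can lie in light polysomes.

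Depth per library is unknown, since the deposited values are TPM, transcript abundance corrected for length and scaled to a fixed library total. Each library summed to 1000000 TPM, and 16883 to 18938 nuclear loci were above 0 in heavy and 16769 to 18588 in light polysomes. Across genes, log2 values correlated between libraries of the same fraction with r of 0.896 to 0.919 and between the fractions with r of 0.878 to 0.922. Libraries were thus hardly more alike within than between fractions by this measure. Such correlations do not show how many genes changed. Marker genes fitted the label of seedlings: 4 leaf markers summed to 11567 to 13978 scaled TPM in heavy and 12428 to 15975 in light polysomes, and 5 root markers to 35.1 to 44.1 in heavy and 36.8 to 41.2 in light polysomes. The 7 seed markers summed to at most 6.75 in heavy and 9.12 in light polysomes, and 3 of 4 flower markers were listed at 0 in all 6 libraries. In bulk tissue, fewer cells of a type and less RNA per cell cannot be told apart. Plastid loci held 27.4, 26.8 and 24.9% of the TPM of the heavy libraries, against 29.3, 34.3 and 28.7% in the light libraries. These groups did not overlap, and 0.10 is the smallest p that an exact permutation test of 3 against 3 libraries can give. Mitochondrial loci held 2.6 ± 0.118% in heavy and 2.05 ± 0.597% in light polysomes (SD, n = 3 each; exact permutation p = 0.30, two-sided).

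In heavy against light polysomes 139 genes differed, which is 0.689% of the genes tested. The 53 higher genes (0.263%) had a median level of 147 scaled TPM (nuclear TPM divided by a library factor) and encoded plastid proteins of the light reactions, enzymes of nitrogen assimilation and glycolysis, and histone H2B, among others. The 86 lower genes (0.426%) had a median level of 80.3 scaled TPM and held non-coding RNAs, a metallothionein and short loci without a gene name, among others. Over all tested genes the median level was 6.43 scaled TPM. The median fold was 2.04 for the higher genes, heavy over light, and 3.1 for the lower genes, light over heavy. A name (a symbol or a synonym in the reference) was at hand for 43 of the higher and 31 of the lower genes. It was at hand for 11714 of all 32801 nuclear loci, tested or not. The threshold was an adjusted p of 0.05 from limma over all tested genes, and 2398 genes had an unadjusted p under 0.05. Over all tested genes 47.1% had a positive log2 fold change. Among the 4330 genes averaging 20 scaled TPM or more 1.11% were higher and 46.6% had a positive value, and the counts in the lists below are to be read against these shares. In none of the 139 did the 3 heavy libraries overlap with the 3 light ones, and the same held for 17.9% of all genes tested. For those of the 139 named below, separation of the libraries is thus a description and adds no support to their calls.

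The balance between the directions depended on the scaling. The median log2 fold change of all genes was -0.035 with scaled TPM and 0.069 with TPM as deposited, a shift of 0.10. Without scaling, 80 higher and 51 lower genes made up a total of 131. After quantile normalization the total was 153, with 76 higher and 77 lower. The estimate of the spread came from 18 libraries of this line and wild type. Without total RNA, in a fit of heavy and light polysomes of both lines chosen after seeing the data, 95 genes passed, 33 higher and 62 lower. With only the 6 libraries compared 9 genes passed, all lower, and of the genes named below this fit kept U12, AT3G55240, AT1G10682, MT1C, AT1G07590 and AT1G56045. With 1 of the 6 libraries left out, between 48 genes (without light library 1) and 144 genes (without heavy library 2) passed. Of the 139 genes, 32 passed in all 6 of these fits, 13 of them higher and 19 lower, and 25 passed in none of them.

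**Figure D1:**
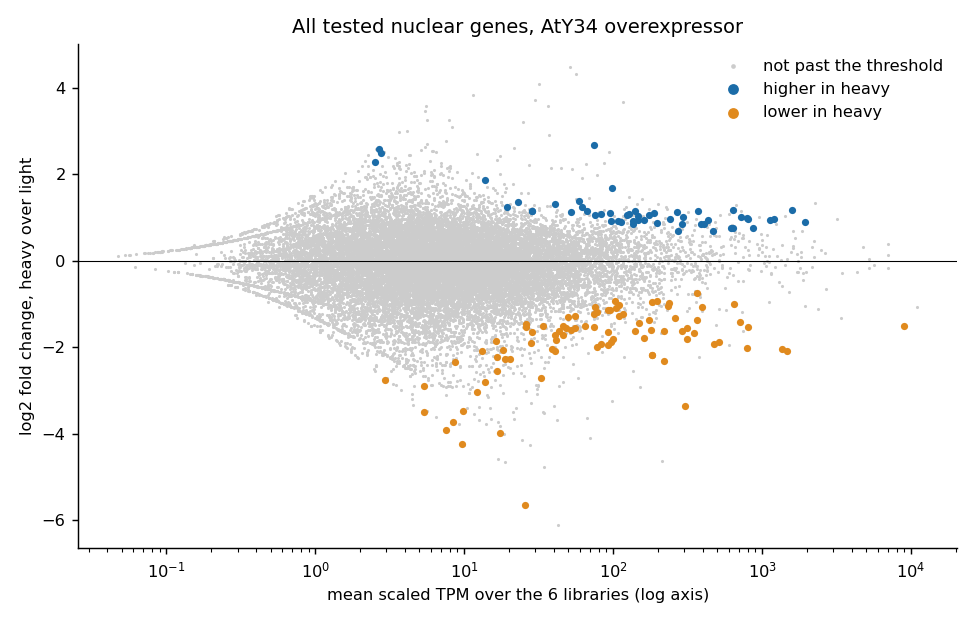
Mean level over the 6 libraries in scaled TPM (log axis) against the log2 fold change of heavy over light polysomes for the tested nuclear genes with a mean above 0 in the AtY34 overexpressor; blue points are the 53 genes higher and orange points the 86 genes lower in heavy polysomes. The higher genes lie between 0.70 and 2.68, while the lower genes reach down to -5.66.

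Proteins of the light reactions were prominent among the abundant genes higher in heavy polysomes. The light-harvesting complexes gather light for both photosystems, and their subunits are encoded in the nucleus and imported into the plastid. LHCB2.1 (AT2G05100), a subunit of the main antenna of photosystem II, had 2153, 2072 and 2340 scaled TPM in heavy polysomes, against 1003, 984 and 910 in light polysomes. The heavy libraries all lay more than 1000 above the light ones, a 2.27-fold difference (log2 fold change 1.18, SE 0.15, adjusted p = 0.00146). LHCB2.2 (AT2G05070), its close relative, had 1482, 1461 and 1533 scaled TPM in heavy and 778, 822 and 714 in light polysomes (log2 fold change 0.95, SE 0.13, adjusted p = 0.00253). These paralogues are alike in sequence, so reads could have been split between them.

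No other member of the antenna list passed. Of 21 members, 2 were higher and 0 lower, beside 0.263% higher over all tested genes, and 13 had negative values. The median log2 fold change was -0.085, beside -0.035 over all tested genes. The 5 LHCB1 genes had negative values that did not pass, with -0.25 for CAB2, -0.28 for CAB3, -0.26 for CAB1, -0.30 for LHB1B1 and -0.085 for LHB1B2. LHCB2.3, the third LHCB2 gene, had a value of 0.55 (SE 0.19, adjusted p = 0.224). LHCB6, chosen after its value was seen, had a value of 0.46 (SE 0.15, adjusted p = 0.214). Both were positive without overlap between the fractions. With TPM as deposited the median of the list turned to 0.068.

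Of 31 subunits of the photosystems, the electron transport chain and the plastid ATP synthase, 6 were higher and 0 lower, with a median of 0.26 and 28 positive values, beside 0.263% higher and 47.1% positive over all tested genes. DRT112 (AT1G20340), a plastocyanin that carries electrons to photosystem I, had 1714, 1521 and 1585 scaled TPM in heavy and 801, 746 and 897 in light polysomes (log2 fold change 0.98, SE 0.15, adjusted p = 0.006). FED A (AT1G60950), the leaf ferredoxin that takes electrons from photosystem I, had 1100, 943 and 870 in heavy and 446, 454 and 543 in light polysomes (log2 fold change 1.01, SE 0.15, adjusted p = 0.00416). For both carriers the lowest heavy library stood well above the highest light library.

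PSAD-1 and PSAD-2, which encode the subunit of photosystem I where ferredoxin docks, were both higher. PSAD-1 had 3078, 1994 and 2586 scaled TPM in heavy and 1513, 1143 and 1426 in light polysomes (log2 fold change 0.90, SE 0.18, adjusted p = 0.0246). PSAD-2 had 1255, 909 and 1138 in heavy and 583, 651 and 688 in light polysomes (log2 fold change 0.77, SE 0.17, adjusted p = 0.042). In both, heavy library 2 was the lowest of the heavy libraries. PSBY, a small subunit of photosystem II, averaged 1072 ± 263 in heavy and 536 ± 64.2 in light polysomes (SD, n = 3 each; adjusted p = 0.021). ATPD, the delta subunit of the plastid ATP synthase, averaged 524 ± 67 in heavy and 290 ± 36.7 in light polysomes (adjusted p = 0.0354). PETE1, the other plastocyanin gene, had a value of 0.059 (SE 0.17, adjusted p = 0.945).

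These calls differed in how much they hung on single libraries. LHCB2.1, LHCB2.2, DRT112 and FED A passed with each library left out in turn, with adjusted p of 0.0333 at most. PSBY did not pass without heavy library 1 or 3 or light library 2 or 3 (adjusted p up to 0.10), and PSAD-1, PSAD-2 and ATPD passed only when heavy library 2 was the library left out (adjusted p up to 0.116, 0.164 and 0.137). PSAD-2 did not pass with quantile normalization (adjusted p = 0.0725) or without the filter (adjusted p = 0.0552), and it overlaps AT1G03140.

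**Figure D2:**
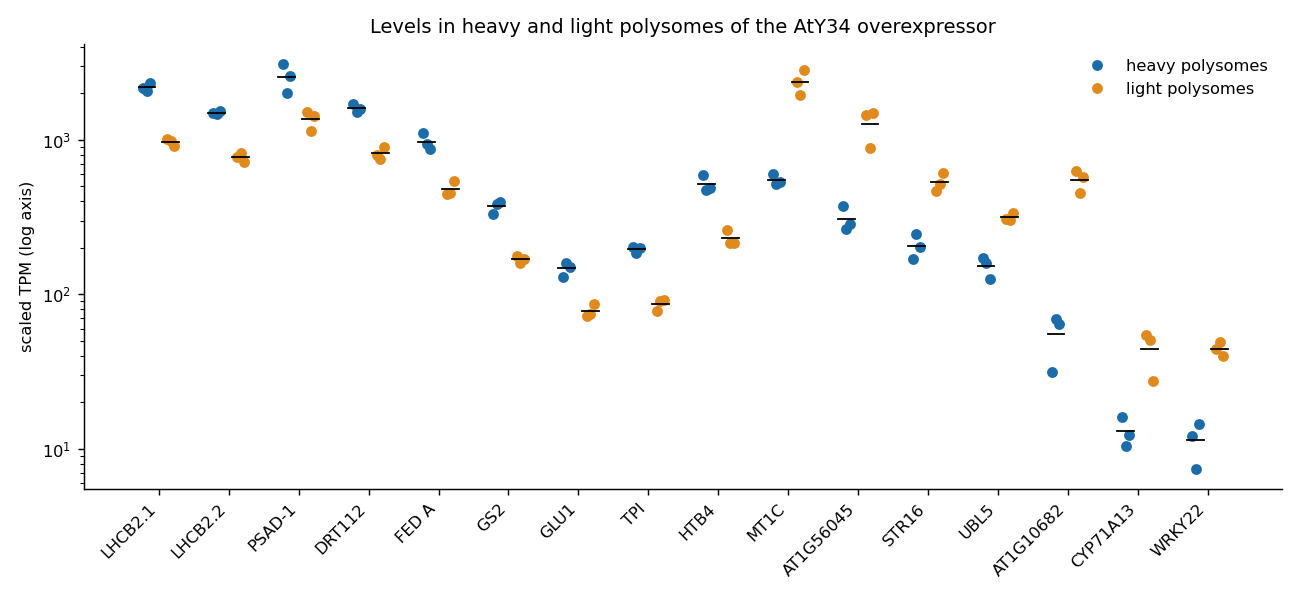
Scaled TPM (log axis) of 16 genes past the threshold in each library of the AtY34 overexpressor; each gene has its 3 heavy polysome libraries (blue) on the left and its 3 light polysome libraries (orange) on the right, and black bars are group means. The 9 genes from LHCB2.1 to HTB4 are higher in heavy polysomes and the 7 genes from MT1C to WRKY22 lower, with no overlap between the fractions.

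Enzymes that use the products of photosynthesis gave a mixed picture. Of 18 genes of the Calvin cycle, the pathway that fixes carbon dioxide, 0 passed in either direction, and the median was -0.048. The most abundant members were RBCS3B, at 7360 ± 615 scaled TPM in heavy and 6702 ± 82.5 in light polysomes, and RBCS1A, at 6550 ± 397 in heavy and 7389 ± 773 in light polysomes. Both encode the small subunit of Rubisco, and their log2 fold changes were 0.13 (SE 0.16, adjusted p = 0.821) and -0.17 (SE 0.16, adjusted p = 0.745). Of 10 photorespiratory genes 1 was higher, with a median of 0.038, beside 0.263% higher over all tested genes. GLDP1 (AT4G33010), the P protein of glycine decarboxylase, had 492, 483 and 517 scaled TPM in heavy and 328, 254 and 253 in light polysomes (log2 fold change 0.85, SE 0.15, adjusted p = 0.0119). It did not pass without heavy library 3 or light library 2 or 3 (adjusted p up to 0.0658), and it overlaps AT4G33000.

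Genes of nitrogen assimilation had positive values almost throughout: 18 of 19, with a median of 0.59, of which 3 passed as higher and 0 as lower (0.263% higher and 47.1% positive over all tested genes). In this pathway glutamine synthetase binds ammonium to glutamate and glutamate synthase passes the nitrogen on. GS2 (AT5G35630), the plastid glutamine synthetase, had 332, 383 and 395 scaled TPM in heavy and 176, 159 and 169 in light polysomes (log2 fold change 1.13, SE 0.17, adjusted p = 0.00359). GLU1 (AT5G04140), the ferredoxin-dependent glutamate synthase, had 130, 160 and 151 in heavy and 72.1, 74.2 and 86.2 in light polysomes (log2 fold change 0.91, SE 0.18, adjusted p = 0.0247). GSR2 (AT1G66200), a cytosolic glutamine synthetase, had 163, 196 and 225 in heavy and 87.4, 98.3 and 115 in light polysomes (log2 fold change 0.95, SE 0.17, adjusted p = 0.0136). All 3 genes were separated between the fractions. Chosen after their values were seen, ASN1, an asparagine synthetase, had a value of 0.74 (SE 0.18, adjusted p = 0.064), and GDH2, a glutamate dehydrogenase, of 0.66 (SE 0.17, adjusted p = 0.0904). GS2 passed with each library left out, with adjusted p of 0.024 at most. GSR2 did not pass without heavy library 3 or light library 1 or 2 (adjusted p up to 0.0751), and GLU1 passed only when heavy library 1 was the library left out (adjusted p up to 0.107); GLU1 overlaps AT5G04150.

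Cytosolic glycolysis was made a list after its genes had been seen among those higher. Of 12 members 5 were higher and 0 lower, with a median of 0.81 and 11 positive values, against 0.263% higher and 47.1% positive over all tested genes. TPI (AT3G55440), triose-phosphate isomerase, had 202, 184 and 200 scaled TPM in heavy and 78.5, 91 and 91.2 in light polysomes (log2 fold change 1.16, SE 0.17, adjusted p = 0.00359). LOS2 (AT2G36530), enolase, had 176, 191 and 169 in heavy and 93.5, 99.2 and 87 in light polysomes (log2 fold change 0.93, SE 0.15, adjusted p = 0.00715). FBA8, an aldolase, averaged 102 ± 10.2 in heavy and 48.3 ± 3.8 in light polysomes (adjusted p = 0.0119), PGK, a phosphoglycerate kinase, 71.9 ± 2.74 in heavy and 32.8 ± 5.89 in light polysomes (adjusted p = 0.021), and GAPC1, a glyceraldehyde-3-phosphate dehydrogenase, 337 ± 29 in heavy and 207 ± 19.6 in light polysomes (adjusted p = 0.0444). The light libraries of PGK ran from 26.8 to 38.6 scaled TPM. In the glycolysis list the aldolases FBA4, FBA5, FBA6 and FBA7 had values of 0.31, 0.0028, 0.95 and -0.24, and GAPC2 of 0.66, and none of these passed. Plastid enzymes of the same steps in the Calvin cycle list did not pass either. A difference between the 2 lists was not tested. PGK1 had a value of 0.48 (SE 0.16, adjusted p = 0.195), TIM, the triose-phosphate isomerase, of 0.10, the aldolases FBA1 and FBA2 of -0.099 and 0.12, and the glyceraldehyde-3-phosphate dehydrogenase genes GAPA, GAPA-2 and GAPB of -0.39, -0.42 and -0.13. TPI and LOS2 passed with each library left out (adjusted p of 0.033 at most). FBA8 did not pass without light library 1 (adjusted p = 0.0535), PGK, which overlaps AT1G79560, passed only when light library 3 was left out (adjusted p up to 0.094), and GAPC1 passed in none of these fits (adjusted p up to 0.175) and not with quantile normalization (adjusted p = 0.0732).

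Histones package DNA, and plants make most of them while cells divide. Of 39 histone genes listed, the 27 with a symbol or synonym in the reference were kept. Among these 27, 2 were higher and 0 lower, with a median of 0.53 and 24 positive values. All tested genes had 0.263% higher and 47.1% positive. The histone genes without a name are not part of these counts or of the median. HTB4 (AT5G59910), a histone H2B, had 589, 470 and 488 scaled TPM in heavy and 260, 215 and 215 in light polysomes (log2 fold change 1.16, SE 0.19, adjusted p = 0.00676). HTB11 (AT3G46030), another H2B, had 210, 210 and 211 in heavy and 110, 101 and 115 in light polysomes (log2 fold change 0.94, SE 0.16, adjusted p = 0.00808). Both kept their calls with each library left out, with adjusted p of 0.0428 at most. The H2B gene HTB2 had a value of 1.31 (SE 0.31, adjusted p = 0.0641) and HTB1 of 0.82 (SE 0.24, adjusted p = 0.133). HTB9, a further H2B, averaged 433 in heavy and 328 in light polysomes, with libraries that overlapped (log2 fold change 0.37, SE 0.23, adjusted p = 0.568). The H2B genes are close in sequence, so reads could have been split among them.

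**Figure D3:**
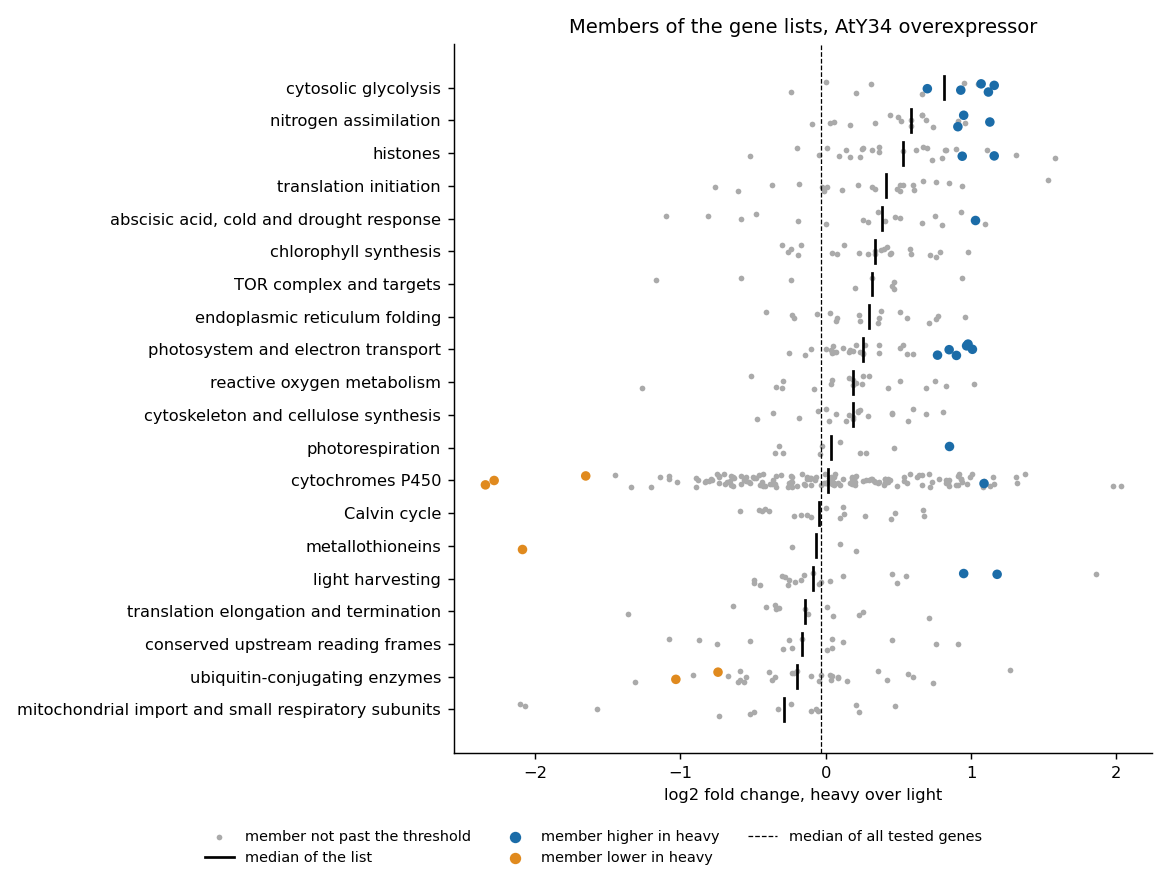
Log2 fold change of heavy over light polysomes for each tested member of 20 gene lists in the AtY34 overexpressor; grey points did not pass the threshold, blue points were higher and orange points lower in heavy polysomes, black bars are the list medians and the dashed line is the median of all tested genes at -0.035. The lists for cytosolic glycolysis (0.81), nitrogen assimilation (0.59) and histones (0.53) have the highest medians. Glycolysis, ubiquitin-conjugating enzymes and cytochromes P450 were added after values had been seen. List members without a symbol or synonym in the reference are left out.

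The genes with the largest differences among the higher ones were of many kinds. AT1G55990, a short protein-coding locus without a name, had 219, 56.6 and 116 scaled TPM in heavy and 10.3, 28.9 and 15.7 in light polysomes, a 7.13-fold difference (log2 fold change 2.68, SE 0.46, adjusted p = 0.0103). The heavy libraries spread widely, from 56.6 to 219 scaled TPM. It did not pass without heavy library 1 or light library 1 (adjusted p up to 0.0663). AT2G20690, AT3G04310 and HSP23.6-MITO, a small heat shock protein of mitochondria, were listed at 0 in all 3 light libraries. HSP23.6-MITO had 2.27, 2 and 10.8 in heavy polysomes, AT2G20690 had 3.1, 5.5 and 7.37, and AT3G04310 had 10.5, 3.47 and 2.49. HSP23.6-MITO passed in none of the fits with 1 library left out, AT2G20690 not without heavy library 3 or light library 1 or 3, and AT3G04310 only without heavy library 2 or 3 (adjusted p up to 0.0767, 0.0764 and 0.114); AT2G20690 overlaps AT2G20700 and AT3G04310 overlaps AT3G04300.

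Among the leading genes with a name, VAR1, TED4 and PSRP2 encode plastid proteins. VAR1 (AT5G42270), a subunit of the FtsH protease that clears damaged photosystem II, had 65.3, 59.9 and 50.9 scaled TPM in heavy and 22.9, 21.4 and 24.4 in light polysomes (log2 fold change 1.31, SE 0.23, adjusted p = 0.0109). TED4 (AT2G26670), the heme oxygenase that starts the synthesis of the phytochrome chromophore, had 34.2, 33.2 and 32.5 in heavy and 12.2, 14.5 and 10.6 in light polysomes (log2 fold change 1.36, SE 0.28, adjusted p = 0.0253). PSRP2, a protein of the plastid ribosome, had 84.2, 78.1 and 97.4 in heavy and 38, 35 and 34.9 in light polysomes (log2 fold change 1.24, SE 0.27, adjusted p = 0.0444). The light libraries of VAR1 and PSRP2 were tightly grouped, while those of TED4 ran from 10.6 to 14.5. VAR1 did not pass without heavy library 1 (adjusted p = 0.056) and overlaps AT5G42280, and TED4 and PSRP2 passed in none of the fits with 1 library left out (adjusted p up to 0.105 and 0.142).

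The transcript table is described for PSRP2. Of its 2 annotated transcripts, the second carried 91.1, 100 and 92.7% of the gene's TPM in heavy polysomes, against 0% in all 3 light libraries, where the first transcript carried 100%. In total RNA of this line the second transcript held 0, 0 and 82%. In wild type it held 100, 89.9 and 72.8% in heavy and 0, 71.7 and 0% in light polysomes. PSRP2 was the 1 gene of 25 named genes with several transcripts for which some transcript's share did not overlap between the fractions, and 4.97% of 1328 multi-transcript genes averaging 20 scaled TPM or more did the same, so the count among the named genes was at the background share. Shares of 0 and 100% also alternated between replicates of 1 fraction, as for PGK, whose first transcript held 8.2, 0 and 100% in heavy and 100, 52.3 and 7.37% in light polysomes.

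Further leading genes were UXS5, a UDP-xylose synthase of the cell wall pathway, DOX1, an alpha-dioxygenase of lipid defence signals, and SUS2 (AT1G80070), a core protein of the spliceosome. UXS5 averaged 22.2 ± 3.87 scaled TPM in heavy and 5.48 ± 1.9 in light polysomes, a 4.05-fold difference (adjusted p = 0.0403). DOX1 averaged 85 ± 7.38 in heavy and 33 ± 10 in light polysomes (adjusted p = 0.0242), and SUS2 averaged 27.8 ± 7.64 in heavy and 10.9 ± 0.603 in light polysomes (adjusted p = 0.048). UXS5 passed in none of the fits with 1 library left out, DOX1 only without light library 3 and SUS2 only without heavy library 1 (adjusted p up to 0.143, 0.112 and 0.176). DELTA-TIP (AT3G16240), an aquaporin of the vacuole membrane, had 1076, 1095 and 1019 in heavy and 496, 558 and 537 in light polysomes, a 2.01-fold difference (SE 0.17 on the log2 scale, adjusted p = 0.0101). It did not pass without light library 1 (adjusted p = 0.0508) or with quantile normalization (adjusted p = 0.0518), and it overlaps AT3G16250 and AT3G03265. AT2G07815 had 150 ± 58.5 in heavy and 47.5 ± 26.9 in light polysomes (adjusted p = 0.0444); it lies in a stretch of chromosome 2 that matches the mitochondrial genome, where nuclear and mitochondrial reads cannot be told apart. Mitochondrial loci held 2.63, 2.47 and 2.7% of TPM in heavy and 2.67, 1.48 and 2% in light polysomes; their part in the result was not tested. AT2G07815 did not pass without heavy library 1 or 3 or light library 2 or 3 (adjusted p up to 0.161), with a pseudocount of 0.1 (adjusted p = 0.0505) or without the filter (adjusted p = 0.0552), and it overlaps AT2G07723 and AT2G07756.

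Of 18 genes of the abscisic acid, cold and drought response 1 was higher, with a median of 0.39, beside 0.263% higher over all tested genes. COR47, a dehydrin that protects cells from drying and freezing, averaged 198 ± 20.1 scaled TPM in heavy and 96.5 ± 12.7 in light polysomes (adjusted p = 0.0247), and did not pass with any 1 library left out (adjusted p up to 0.105). Other higher genes, chosen after their values were seen, were STP1, a sugar transporter, and RPL12-A, a protein of the plastid ribosome. STP1 had 307, 319 and 328 in heavy and 165, 156 and 168 in light polysomes (log2 fold change 0.96, SE 0.14, adjusted p = 0.00359). RPL12-A had 443, 332 and 412 in heavy and 186, 182 and 217 in light polysomes (log2 fold change 1.01, SE 0.16, adjusted p = 0.006). Both passed with each library left out (adjusted p of 0.0331 at most); STP1 overlaps AT1G11270 and RPL12-A overlaps AT3G27831.

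Non-coding RNAs were among the genes lower in heavy polysomes. Of 452 tested loci annotated as RNA or pseudogene 0 were higher and 8 lower, beside 53 higher and 78 lower of 19514 protein-coding genes. AT1G10682, a non-coding RNA, had 31.4, 69.6 and 64.2 scaled TPM in heavy and 628, 451 and 574 in light polysomes, which is 10-fold higher in light polysomes (log2 fold change -3.37, SE 0.39, adjusted p = 7.47e-04). It passed with each library left out (adjusted p of 0.00808 at most). U12, an RNA of the minor spliceosome, was listed at 0 in all 3 heavy libraries and had 61.4, 53.6 and 37.3 in light polysomes (adjusted p = 0.021), with 969 ± 300 in total RNA. AT1G15405, a non-coding RNA of 292 bases, had 7233, 3885 and 3430 in heavy and 12821, 15152 and 11553 in light polysomes (log2 fold change -1.51, SE 0.30, adjusted p = 0.024), while total RNA stood at 216848 ± 38218. U12 passed only without heavy library 2 and AT1G15405 only without heavy library 1 (adjusted p up to 0.086 and 0.112). AT1G15405 did not pass without the filter (adjusted p = 0.0506), and it overlaps AT1G05163. AT3G52748 averaged 1.09 ± 1.88 in heavy and 18.4 ± 8.48 in light polysomes, was listed at 0 in total RNA (adjusted p = 0.00784) and overlaps AT3G52742.

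Among the abundant protein-coding genes lower in heavy polysomes was MT1C (AT1G07610), a metallothionein, a very small protein that binds metal ions. It had 600, 518 and 530 scaled TPM in heavy and 2353, 1934 and 2833 in light polysomes (log2 fold change -2.09, SE 0.25, adjusted p = 7.60e-04), 4.32-fold higher in light polysomes. AT1G07590, next to it, had 506, 459 and 602 in heavy and 2286, 1666 and 2611 in light polysomes (log2 fold change -2.05, SE 0.20, adjusted p = 1.29e-04). AT1G07590 overlaps MT1A, another metallothionein, which was listed at 0 in all 9 libraries of this line. Reads of MT1A may thus have been counted at AT1G07590, which was not tested. The strand of the 2 loci was not considered. For either gene even the lowest light library stood far above the highest heavy library. The other metallothioneins tested did not pass, with values of -0.23 for MT2A, 0.21 for MT2B and 0.10 for MT3. The list had 0 higher and 1 lower of 4, beside 0.426% lower over all tested genes.

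Of the 86 lower genes 55 had no name in the reference, and 22 of these had a span under 1000 bases. Of all 32801 nuclear loci, tested or not, 11714 had a name, so missing names are not read as a trait of the lower genes. Among tested protein-coding genes with a span, 1282 of 19460 were under 1000 bases, and 18 of these were lower. The 22 loci were thus not all protein-coding, and these shares cover unlike sets. The share among loci without a name was not counted. AT1G56045 had 373, 263 and 285 scaled TPM in heavy and 1450, 878 and 1486 in light polysomes (log2 fold change -2.02, SE 0.26, adjusted p = 0.00146). AT2G15960 had 386, 441 and 393 in heavy and 1443, 1017 and 1132 in light polysomes (log2 fold change -1.54, SE 0.26, adjusted p = 0.00784). AT1G80180 had 498, 291 and 388 in heavy and 1125, 1031 and 938 in light polysomes (log2 fold change -1.42, SE 0.18, adjusted p = 0.00145). At each locus all light libraries stood well above all heavy libraries. AT5G65580, at 215 ± 49.1 in heavy and 812 ± 279 in light polysomes (adjusted p = 0.0123), has a gene span of 309 bases and overlaps AT5G65575. AT1G56045 and AT1G80180 passed with each library left out (adjusted p of 0.0135 at most), AT2G15960 did not pass without light library 1 (adjusted p = 0.0506), and AT5G65580 not without light library 1 or 2 (adjusted p up to 0.071). AGP15, an arabinogalactan protein of the cell surface, averaged 434 ± 26.5 in heavy and 870 ± 105 in light polysomes (adjusted p = 0.0119), and did not pass without heavy library 3 or light library 1 (adjusted p up to 0.0673) or with TPM as deposited (adjusted p = 0.0669).

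Several of the larger falls were of genes listed at or near 0 in heavy polysomes. AT3G55240 was listed at 0 in all heavy libraries and had 17.1, 12 and 28.5 scaled TPM in light polysomes (adjusted p = 0.00359). AT2G39500 had 0, 7.89 and 0 in heavy and 34.5, 32.3 and 29.3 in light polysomes (adjusted p = 0.00359). Both passed with each library left out (adjusted p of 0.0247 at most), and AT2G39500 overlaps AT2G09055. AT1G55675, AT3G18360, AT1G02070 and COX19-1, an assembly factor of respiratory complex IV, were listed at 0 in all heavy libraries, and averaged 15 ± 5.68, 16.8 ± 17, 5.9 ± 1.17 and 10.7 ± 3.83 in light polysomes. Of these, AT1G55675, AT1G02070 and COX19-1 passed in none of the fits with 1 library left out, and AT3G18360, which overlaps AT3G18350, did not pass without heavy library 1 or 3 or light library 2 (adjusted p up to 0.136, 0.0897, 0.122 and 0.0933). AT4G07950 averaged 1.83 ± 1.59 in heavy and 22.5 ± 17 in light polysomes, AT3G05810 averaged 3.73 ± 3.43 in heavy and 23.8 ± 5.38 in light polysomes, and AT1G13390 averaged 0.715 ± 1.24 in heavy and 10.1 ± 2.37 in light polysomes (adjusted p = 0.0246, 0.0246 and 0.0497). AT4G07950 did not pass without heavy library 1 or light library 1 or 2, AT3G05810 without heavy library 3 or any light library, and AT1G13390 passed only without heavy library 2 (adjusted p up to 0.142, 0.102 and 0.159). With a pseudocount of 0.1 AT4G07950 and AT3G05810 did not pass (adjusted p = 0.0561 and 0.0968), and AT1G13390 did not pass with TPM as deposited or without the filter (adjusted p = 0.0545 and 0.0623).

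Other lower genes, chosen after their values were seen, were STR16, UBL5 and WRKY22. STR16, a sulfurtransferase, had 168, 244 and 203 scaled TPM in heavy and 466, 515 and 609 in light polysomes (log2 fold change -1.37, SE 0.18, adjusted p = 0.00199); it overlaps AT5G66030. UBL5, a ubiquitin-like protein, had 171, 159 and 126 in heavy and 305, 303 and 336 in light polysomes (log2 fold change -1.05, SE 0.17, adjusted p = 0.006); it overlaps AT5G42290. WRKY22, a transcription factor of defence, had 12.2, 7.46 and 14.5 in heavy and 44.5, 48.9 and 39.8 in light polysomes (log2 fold change -1.91, SE 0.34, adjusted p = 0.0123). The light libraries of WRKY22 all stood well above the highest heavy library. STR16 and UBL5 passed with each library left out (adjusted p of 0.0337 at most), and WRKY22 did not pass without light library 1 or 2 (adjusted p up to 0.055). Of 31 ubiquitin-conjugating enzymes, a list added after values had been seen, 0 were higher and 2 lower, with a median of -0.20. Over all tested genes 0.426% were lower. UBC1 averaged 72.4 ± 12.5 in heavy and 148 ± 16.6 in light polysomes (adjusted p = 0.0206), and UBC10 averaged 273 ± 38.8 in heavy and 455 ± 5.11 in light polysomes (adjusted p = 0.0256). Neither passed with TPM as deposited (adjusted p = 0.0998 and 0.146) or quantile normalization (adjusted p = 0.0501 and 0.072); UBC1 passed only without heavy library 2 or light library 1 and UBC10 only without heavy library 2 (adjusted p up to 0.0903 and 0.133), and UBC1 overlaps AT1G14390.

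Nuclear genes for plastid electron transport complexes were found on the lower side as well, again chosen after their values were seen. NdhL, a subunit of the plastid NADH dehydrogenase-like complex, had 70.2, 65.3 and 66.4 scaled TPM in heavy and 265, 188 and 183 in light polysomes (log2 fold change -1.62, SE 0.27, adjusted p = 0.00828). HCF153, needed to build the cytochrome b6f complex, had 52, 45.3 and 35 in heavy and 172, 124 and 124 in light polysomes (log2 fold change -1.64, SE 0.26, adjusted p = 0.00676). NdhL did not pass without light library 1 (adjusted p = 0.0535) and overlaps AT1G09193 and AT1G70770, and HCF153 passed with each library left out (adjusted p of 0.0455 at most).

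Cytochromes P450, enzymes of specialised metabolism, were a list added after values had been seen. Of 159 members 1 was higher and 3 lower, with a median of 0.019, beside 0.263% higher and 0.426% lower over all tested genes. CYP71A13 (AT2G30770), an enzyme of camalexin synthesis, had 16.1, 10.5 and 12.3 scaled TPM in heavy and 54.5, 50.7 and 27.3 in light polysomes (log2 fold change -1.65, SE 0.32, adjusted p = 0.021). CYP706A6 averaged 2.13 ± 1.08 in heavy and 15.2 ± 7.68 in light polysomes (adjusted p = 0.0174), and CYP72A9 averaged 6.05 ± 0.521 in heavy and 34.3 ± 11.4 in light polysomes (adjusted p = 0.0444). CYP81F4, of indole glucosinolate synthesis, went the other way, with 173 ± 31.3 in heavy and 80.4 ± 10.6 in light polysomes (adjusted p = 0.0189). CYP72A9 passed in none of the fits with 1 library left out, CYP71A13 only without heavy library 1 or light library 3, CYP706A6 not without heavy library 1 or light library 1, and CYP81F4 only without heavy library 3 or light library 2 (adjusted p up to 0.191, 0.111, 0.105 and 0.087). CYP72A9 did not pass with quantile normalization (adjusted p = 0.0507), a pseudocount of 0.1 (adjusted p = 0.0535) or no filter (adjusted p = 0.0538) either, and CYP71A13 overlaps AT2G30766 and CYP81F4 overlaps AT4G37409.

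Among the tested initiation and elongation factors with a name in the reference no gene passed. Of 22 initiation factors 0 passed, with a median of 0.41 and 16 positive values. EIF4A1, an RNA helicase of initiation, averaged 111 ± 22.6 scaled TPM in heavy and 94.1 ± 39.8 in light polysomes, and EIF3G1, a subunit of eIF3, averaged 107 ± 11.2 in heavy and 76.2 ± 18.4 in light polysomes (adjusted p = 0.723 and 0.366). Of 23 elongation and termination factors listed, the 13 with a name in the reference were kept, and 0 passed. Their median of -0.14 turned to 0.005 with TPM as deposited, and 5 values were positive and 8 negative. The factors without a name are not part of this median, so it does not describe elongation factors as a group. Among the positive values was LOS1 at 0.71 (SE 0.19, adjusted p = 0.0934), chosen after its value was seen. TCTP, a growth regulator bound to the elongation machinery, had 328, 665 and 367 in heavy and 566, 758 and 703 in light polysomes (log2 fold change -0.64, SE 0.22, adjusted p = 0.22); without heavy library 2 it passed (adjusted p = 0.0196). FBR12, an eIF5A, averaged 301 ± 57.5 in heavy and 257 ± 52 in light polysomes (adjusted p = 0.697). Of 9 genes of the TOR kinase complex and its targets 0 passed, with a median of 0.32. Among them EMB3010 and RPS6, genes for ribosomal protein S6, had values of 0.20 and 0.32 (adjusted p = 0.787 and 0.61), and LST8-1, a TOR partner chosen after its value was seen, had a value of -1.17 (SE 0.32, adjusted p = 0.116). Of 15 genes with conserved upstream reading frames 0 passed, with a median of -0.16, and SAMDC, a polyamine enzyme, averaged 271 ± 62.8 in heavy and 326 ± 40.5 in light polysomes (adjusted p = 0.643).

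Of 14 genes for mitochondrial import and small respiratory subunits 0 passed, with a median of -0.28. TOM6 and TOM5, small parts of the import pore, were its most abundant members and did not overlap between the fractions. TOM6 averaged 34.9 ± 25.3 scaled TPM in heavy and 132 ± 30.3 in light polysomes, and TOM5 averaged 50.4 ± 10.3 in heavy and 153 ± 39.5 in light polysomes (log2 fold changes -2.10 and -1.57, adjusted p = 0.155 and 0.108). TOM6 overlaps AT1G49405 and TOM5 overlaps AT5G08050. Chlorophyll synthesis (23 genes, median 0.34), protein folding in the endoplasmic reticulum (18 genes, median 0.30), reactive oxygen metabolism (21 genes, median 0.19) and the cytoskeleton with cellulose synthesis (21 genes, median 0.19) had 0 genes past the threshold. Their most abundant members were CRD1 (-0.17) and GUN5 (0.29), SHD (0.56) and UNE5 (0.37), CAT3 (0.16) and FSD1 (0.19), and ACT2 (-0.18) and TUB4 (-0.36), with adjusted p between 0.343 and 0.766. BIP1, a chaperone of the endoplasmic reticulum chosen after its value was seen, had a value of 0.96 (SE 0.25, adjusted p = 0.0843).

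Position between the fractions went with gene length. No protein lengths were at hand, so the span of each gene in the reference annotation was used, introns included. Over 1282 genes with a span under 1000 bases the median log2 fold change was -0.41, and 4 were higher and 18 lower. It was -0.20 over 5868 genes from 1000 to under 2000 bases (20 higher, 39 lower), -0.013 over 9449 genes from 2000 to under 4000 bases (19 higher, 21 lower) and 0.20 over 2861 genes of 4000 or more bases (8 higher, 0 lower). Across 19460 genes the rank correlation of span and log2 fold change was 0.214, and it ran from 0.0672 to 0.243 over the 9 pairs of a heavy with a light library; genes share libraries and are not independent. The order of the classes was the same among the 4089 genes averaging 20 scaled TPM or more, where the correlation was 0.266. Among protein-coding genes with a span, outside the mitochondrial stretch of chromosome 2, the 78 lower genes had a median span of 1503 bases and the 51 higher genes of 2149 bases, against 2365 over all 19460. The mean span weighted by nuclear TPM was 1991, 2123 and 2034 bases in heavy and 1915, 1989 and 1969 bases in light libraries, without overlap (exact permutation p = 0.10, the smallest possible). Several of the genes higher in heavy polysomes were short, among them FED A with 985 bases and HTB11 with 748.

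**Figure D4:**
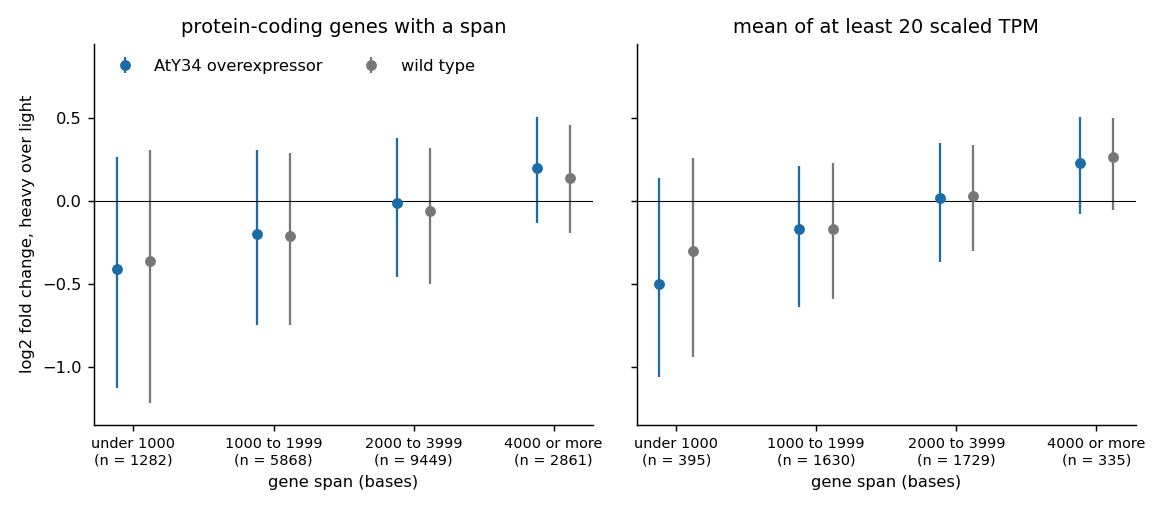
Median log2 fold change of heavy over light polysomes by gene span, with bars from the lower to the upper quartile of genes; the AtY34 overexpressor (blue) stands left of wild type (grey), the 19460 tested protein-coding genes with a span outside the mitochondrial stretch of chromosome 2 are on the left and those averaging 20 scaled TPM or more on the right. In both lines the medians order from under 1000 bases (-0.41 in AtY34 and -0.36 in wild type, all genes) to 4000 bases or more (0.20 in AtY34 and 0.14 in wild type).

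Total RNA of the same line, which entered the filter, the scaling and the estimate of the spread but not the contrast, lay between the fractions for most of the genes. Its mean fell between the heavy and the light mean for 129 of the 139 genes, 51 of the higher and 78 of the lower ones. That is 92.8% of them, beside 36.7% of all tested genes and 70% of those that did not overlap between the fractions. Of the other lower genes 5 were above the light mean in total RNA, among them U12 and AT1G15405. LHCB2.1 stood at 1457 ± 84.7 scaled TPM in total RNA, GS2 at 265 ± 11.4, HTB4 at 420 ± 89.5 and MT1C at 929 ± 177.

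Wild type gave a like picture, and no gene differed between the lines past the threshold. In wild type 193 genes (0.957% of those tested) passed, 79 higher (0.392%) and 114 lower (0.565%). Of the 139 AtY34 genes 136 had the same sign in wild type, 52 of the 53 higher and 84 of the 86 lower, and 74 passed in both lines, which is 53.2% of the AtY34 and 38.3% of the wild-type genes. The fractions of the lines share no library, but both fits share 1 estimate of the spread. The median log2 fold change of the AtY34 genes was 1.07 in AtY34 and 0.82 in wild type for the higher genes, and -1.66 in AtY34 and -1.23 in wild type for the lower ones; the genes were chosen on their AtY34 values, so these medians are a description. The difference between the lines, tested as an interaction, passed for 0 of 20171 genes (0%), with 691 genes at an unadjusted p under 0.05 and a smallest adjusted p of 0.304 by limma. The median SE of that difference was 0.80 over all genes and 0.38 over the 139 genes, and differences of several SE also missed the threshold.

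For LHCB2.1 the log2 fold change in AtY34 differed from that in wild type by -0.026 (SE 0.22). For GS2 the difference was 0.0038 (SE 0.23), for MT1C 0.21 (SE 0.35) and for AT1G10682 0.44 (SE 0.56). With SEs of this size these values do not show that the lines respond alike.

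The widest gaps between the lines were in genes near 0. AT1G02070 was listed at 0 in heavy and had 5.9 ± 1.17 scaled TPM in light polysomes of AtY34, against 3.46 ± 3.24 in heavy polysomes of wild type, where it was listed at 0 in light polysomes (difference -4.51, SE 0.78, adjusted p = 0.304). AT5G17165 averaged 0.987 ± 1.71 in heavy polysomes of AtY34 and was listed at 0 in its light polysomes, against 0 in heavy and 8.2 ± 3.09 in light polysomes of wild type (adjusted p = 0.304). ROXY2, a glutaredoxin, averaged 2.14 ± 1.87 in heavy polysomes of AtY34 and was listed at 0 in its light polysomes, against 0 in heavy and 3.14 ± 0.193 in light polysomes of wild type (adjusted p = 0.404). Among the P450 genes, CYP71A13 and CYP706A6 had fold changes near 0 in wild type (-0.038 and -0.016); their differences between the lines were -1.61 (SE 0.45, unadjusted p = 0.00233) and -2.32 (SE 0.62, unadjusted p = 0.00155) and had adjusted p of 1. In all, 20 of the 139 genes (14.4%) had an unadjusted p under 0.05 for the difference, beside 3.43% of all tested genes; the 139 were chosen on AtY34 values that also enter the difference, so nothing is read from this share.

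**Figure D5:**
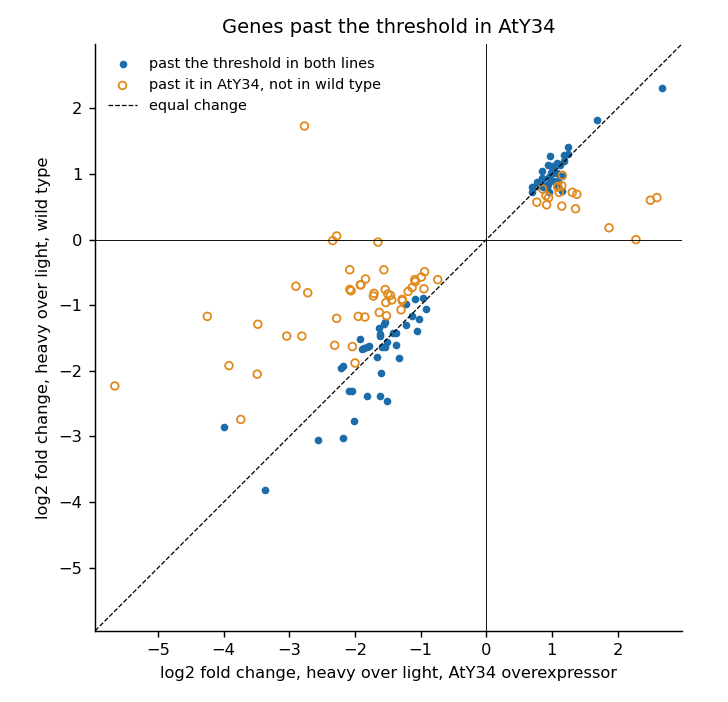
Log2 fold change of heavy over light polysomes in the AtY34 overexpressor (horizontal axis) and in wild type (vertical axis) for the 139 genes past the threshold in AtY34; filled points also passed in wild type (74 genes), open points did not, and the dashed line marks equal change. All but 3 genes have the same sign in both lines.

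The locus AT1G30580, taken from general knowledge as that of AtYchF1, the GTPase named in the series title, is not named in the reference table. It had 179, 171 and 161 scaled TPM in heavy and 175, 194 and 215 in light polysomes of the AtY34 overexpressor, so the fractions overlapped (log2 fold change -0.19, SE 0.25, adjusted p = 0.839). In wild type it averaged 35.8 ± 6.11 in heavy and 31.1 ± 11.1 in light polysomes (log2 fold change 0.25, SE 0.25, adjusted p = 0.787). The higher level in both fractions of the AtY34 line was not tested here.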

How the data were processed

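Libraries of whole seedlings were strand-specific and depleted of ribosomal RNA, per the labels' protocols. The authors deposited TPM per gene and per transcript; STAR, FastQC and MultiQC and the build TAIR10 come from the submitters' processing notes, without versions, and other steps are not given in the sources used here. Columns were tied to samples by name, and those with names that match no single label were not used (18 per gene, 54 per transcript). Symbols, biotypes, spans and overlaps came from a table of the TAIR10.1 assembly, which held 28446 of the nuclear loci. Overlaps were judged by position alone, without regard to strand.

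Nuclear TPM were divided by a median-ratio factor per library to give scaled TPM; the factors rest on 9431 genes that reached 1 TPM in each of the 18 libraries. Loci that reached 1 TPM in 3 or more libraries entered limma 3.58.1 (R 4.3.3, mean-dependent prior) on log2(scaled TPM + 1), a scale that understates changes of low genes, with 1 mean per line and fraction, 12 residual degrees of freedom and two-sided tests. Benjamini-Hochberg adjustment was done separately for each comparison. Folds are ratios of mean scaled TPM; SDs are over 3 libraries. The fit was checked on simulated data.

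The genes, lists and tests were chosen with earlier results of these data known. Named genes averaging 5 scaled TPM or more in a fraction, with no overlap between fractions, were the 12 with the largest change and the 8 most abundant per direction; called list members, the 2 most abundant members of lists without a call, and AtYchF1 were added. List members without a symbol or synonym in the reference were left out; this left 1 of 26 small ribosomal proteins, and that list is not reported. Protein lengths planned for were replaced by gene span. The alternatives were another pseudocount, no filter, TPM as deposited, quantile normalization, only the 6 libraries, a replicate block and each library left out. No sequences were at hand.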

Additional observations from a re-analysis of the deposited data

How the results depend on the processing

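The count of 139 genes became 9 when only the 6 libraries compared entered the fit (2380 genes at an unadjusted p under 0.05), and ran from 48 to 144 with 1 of these 6 left out: 71 without heavy library 1, 66 without heavy library 3, and 48, 76 and 77 without light library 1, 2 and 3. It was 95 without total RNA, in a fit of both lines, 128 with a pseudocount of 0.1, 121 without the filter, 131 with TPM as deposited and 153 with quantile normalization. Fits that left a fraction with 2 libraries took the spread from all groups. The difference between the lines passed for 1 gene without the filter and for 0 to 1 genes with 1 library left out (1 without AtY34 heavy library 3, wild-type heavy library 2 or wild-type light library 1 or 2), and for 0 under the other alternatives. The correlation with gene span was 0.266 among genes averaging 20 scaled TPM or more and 0.169 to 0.23 with 1 library left out. Of 58 named genes past the threshold none changed direction; 52 no longer passed with only the 6 libraries, 16 to 35 with 1 library left out and 4 to 7 under the other alternatives. The sign of some list medians turned with TPM as deposited. These lists were light harvesting (0.068), the Calvin cycle (0.10), metallothioneins (0.088) and the named elongation and termination factors (0.005).

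With the replicate number as a block 178 genes passed, 67 higher and 111 lower; the cause was not tested. Same-numbered heavy and light libraries deviated together with r of 0.0589, 0.0539 and -0.0159 in AtY34 and 0.033, 0.03 and 0.00278 in wild type, and over genes averaging 20 scaled TPM or more with r of 0.23, 0.216 and -0.06 in AtY34 and 0.111, 0.111 and 0.105 in wild type. Differently numbered heavy and light libraries gave r of -0.0987 to 0.0574 in AtY34 and -0.0425 to 0.0122 in wild type. Over genes averaging 20 scaled TPM or more they gave -0.367 to 0.208 in AtY34 and -0.0961 to -0.0097 in wild type. The third same-numbered AtY34 pair was below 0 in both, so the numbers were not taken as pairs in AtY34. In wild type all same-numbered pairs lay above the others only over the more abundant genes. Depth could not be known from TPM, so no limit of detection is given.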
